A study of Mus musculus with 4 samples.

Results

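Genes of myoblast fusion and of caveolae were followed through sorted satellite cells of dystrophic and control mice. The 10 genes, of 27998 genes in the deposited tables, were taken by name: the fusogens *Tmem8c* and *Gm7325*, the cadherins *Cdh15* and *Cdh2*, the junctional adhesion molecules *Jam2* and *Jam3*, the caveolins *Cav1* and *Cav3*, and the cavins *Murc* and *Ptrf*. All of them were in the tables, and their unique molecular identifiers (UMIs, each standing for 1 captured transcript) were counted in Myog-positive, dividing and Pax7-positive cells of 4 libraries. Later annotations call *Tmem8c* *Mymk*, *Gm7325* *Mymx*, *Murc* *Cavin4* and *Ptrf* *Cavin1*.

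Each library held cells from the lower hindlimbs of 2 pooled mice, sorted as negative for Cd11b, Sca1, Cd45 and Cd31 and positive for α7-integrin and VCAM1. The control B10 was strain C57/Bl10ScsSn at 15 weeks and its dystrophic counterpart *mdx* was C57BL/10ScSn-Dmdmdx at 11 weeks. The control DBA was DBA/2 at 13 weeks and its dystrophic counterpart D2-*mdx* was D2.B10-Dmdmdx at 14 weeks. There was 1 library a strain, so age, strain and library cannot be told apart from the dystrophin mutation, and a difference between libraries carries counting error only and no test. Levels were expressed as UMIs scaled to the total of the same cells (counts per 1e6, CPM), and levels of different genes were not compared with each other. In Pax7-positive cells *Dmd*, the mutated gene, stood at 326 CPM in B10 against 138 in *mdx*, and at 293 CPM in DBA against 123 in D2-*mdx*.

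A cell with at least 2 UMIs of *Myog*, the transcription factor of early differentiation, was called Myog-positive. Cells without a *Myog* UMI and with at least 5 UMIs over 16 genes of the S, G2 and M phases were called dividing. They also had to hold a UMI of *Pax7*, *Myf5* or *Myod1*. Other cells without a *Myog* UMI and with a UMI of *Pax7*, the marker of satellite cells, were called Pax7-positive. The 56, 606, 44 and 595 cells left (B10, *mdx*, DBA, D2-*mdx*), among them those with 1 *Myog* UMI, were in no class. Myog-positive cells numbered 10 of 4416 for B10 and 24 of 2679 for DBA, against 216 of 4807 for *mdx* and 240 of 4135 for D2-*mdx*. Dividing cells numbered 5, 137, 22 and 221, and Pax7-positive cells 4345, 3848, 2589 and 3079, in the order B10, *mdx*, DBA, D2-*mdx*. The summed depth of the Myog-positive cells was 196912 UMIs for B10 and 422159 for DBA, against 3209041 for *mdx* and 3551244 for D2-*mdx*, and that of the 5 dividing B10 cells was 76601, so that values from the control libraries in these classes were imprecise. *Myf5*, a satellite cell gene that entered only the dividing class rule, stood at 414 to 473 CPM in Pax7-positive cells of the 4 libraries. The fibroblast panel used to set other cell types aside was cut to *Pdgfra*, *Pi16*, *Clec3b* and *Tnmd*, because *Dpt*, also planned for it, stood at 238 to 767 CPM in Pax7-positive cells, against 0.526 to 2.69 CPM for the sum of the remaining 4. Of all barcodes, 61 of 27364 were found in more than 1 library.

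Skeletal muscle fibres form when mononucleated myoblasts leave the cell cycle, express *Myog*, adhere and merge their membranes. Myomaker (*Tmem8c*), a multipass membrane protein, and myomixer (*Gm7325*), a micropeptide, are the muscle-specific proteins that drive this merger, while M-cadherin (*Cdh15*), N-cadherin (*Cdh2*) and the junctional adhesion molecules B and C (*Jam2*, *Jam3*) hold cells in contact. Caveolae are flask-shaped invaginations of the plasma membrane that need a caveolin and a cavin: caveolin-1 (*Cav1*) and cavin-1 (*Ptrf*) in many cell types, and caveolin-3 (*Cav3*) and cavin-4 (*Murc*) in muscle, where they shape the sarcolemma and the T-tubules.

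On GRCm38 the protein-coding genes *Tmem8c* and *Gm7325* lie at chr2:27061636-27072179 and chr17:45600971-45602102, both on the minus strand. *Cav1* and *Cav3* lie on the same chromosome, at chr6:17306335-17341452 and chr6:112459505-112472872, and *Murc* lies at chr4:48663514-48673502, all on the plus strand. Upstream sequence was found in RefSeq (GRCm38.p6) for 5 of the 10 genes, *Cdh15*, *Cav1*, *Cav3*, *Murc* and *Ptrf*. The 250 bases before the start of *Cav3*, *Murc* and *Cav1* are shown, since the contrast between them runs through the results. *Cav3* and *Murc* were higher in Myog-positive than in Pax7-positive cells of the dystrophic libraries, and *Cav1* fell. Capitals mark the E-box CANNTG, the core recognised by the MyoD family of factors to which myogenin belongs, searched on both strands, on which it reads alike.

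Cav3, chr6:112459255-112459504, plus strand: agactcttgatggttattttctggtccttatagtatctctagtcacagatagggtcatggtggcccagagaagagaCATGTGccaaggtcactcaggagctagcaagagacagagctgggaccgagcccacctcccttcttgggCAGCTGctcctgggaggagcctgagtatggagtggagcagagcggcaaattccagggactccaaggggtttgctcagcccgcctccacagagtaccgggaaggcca
Murc, chr4:48663264-48663513, plus strand: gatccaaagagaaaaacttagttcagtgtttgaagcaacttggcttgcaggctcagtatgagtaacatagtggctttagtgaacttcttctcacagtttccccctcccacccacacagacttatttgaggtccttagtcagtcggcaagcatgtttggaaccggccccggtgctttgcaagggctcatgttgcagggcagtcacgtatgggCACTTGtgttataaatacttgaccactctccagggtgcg
Cav1, chr6:17306085-17306334, plus strand: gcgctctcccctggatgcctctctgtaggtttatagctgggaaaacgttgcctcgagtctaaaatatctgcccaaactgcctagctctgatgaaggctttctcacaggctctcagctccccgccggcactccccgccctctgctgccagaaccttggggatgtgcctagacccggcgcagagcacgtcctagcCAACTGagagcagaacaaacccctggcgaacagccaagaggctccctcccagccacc

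*Cav3* held 2 E-boxes, beginning 174 and 106 bases before the start, of which the latter was CAGCTG, while *Murc* held 1 at 39 bases and this *Cav1* start held 1 at 57 bases. CANNTG was present in 66.2% of all 32851 upstream windows of this length and CAGCTG, a special case of it, in 13.0%, so that a match describes these letters and no more.

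The first comparison asked which of the genes change as satellite cells enter differentiation, with the 4 libraries as replicates (edgeR, library as a block, so that p-values measure the spread between these libraries). In Myog-positive over Pax7-positive cells 5 of the 10 genes rose, *Tmem8c*, *Gm7325*, *Murc*, *Cav3* and *Jam3*, against 19.4% of the 10903 genes tested. *Tmem8c* and *Jam3* were higher in 4 of 4 libraries. The rises of *Gm7325*, *Murc* and *Cav3* came from *mdx* and D2-*mdx*, with at most 1 UMI of each in Myog-positive cells of a control library. *Cav1* and *Ptrf* fell, against 21% of all genes, and *Cdh15*, *Cdh2* and *Jam2* did not pass the test. The median log2 change of the 10 genes was 1.19, against −0.05 over all genes. The 10 genes were chosen with earlier results of these data known, so the values over all genes serve as a description and not as a test of the list.

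**Figure D1:**
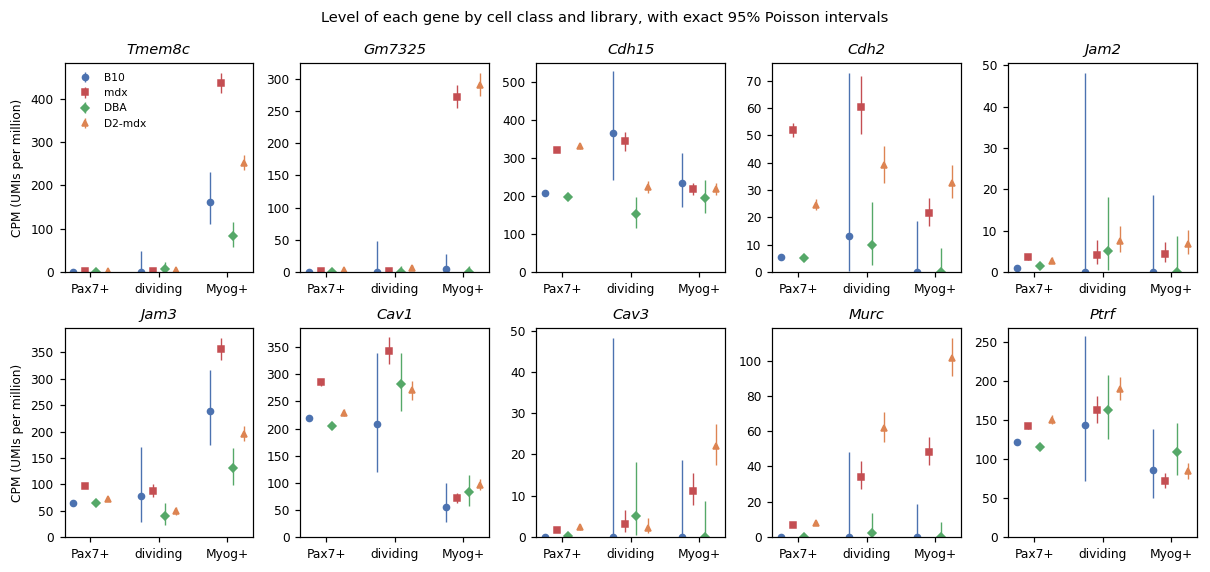
CPM of each gene (vertical axis, from 0) in Pax7-positive, dividing and Myog-positive cells, 1 point a library with its exact 95% Poisson interval. *Tmem8c* rose in Myog-positive cells of all 4 libraries, *Gm7325* is seen at 272 and 291 CPM in *mdx* and D2-*mdx* against 1 UMI in B10 and 0 in DBA, and *Cav1* is lowest in Myog-positive cells of each library.

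*Tmem8c*, without which myoblasts do not fuse, was counted at 163 CPM in Myog-positive cells of B10 (32 UMIs) and 82.9 in those of DBA (35 UMIs), against 435 in *mdx* (1397 UMIs) and 252 in D2-*mdx* (896 UMIs). In Pax7-positive cells it stood at 0.0256, 1.18, 0.245 and 2.48 CPM (B10, *mdx*, DBA, D2-*mdx*), so the classes did not overlap in any library. The gene rose by 8.14 ± 0.41 on the log2 scale (SE, n = 4 libraries; adjusted p = 9.2e-12). The UMIs of *Tmem8c* were concentrated in the rare Myog-positive cells, which gave 97.0%, 96.1%, 76.1% and 91.4% of those of myogenic cells (B10, *mdx*, DBA, D2-*mdx*). They gave 0.494%, 8.0%, 1.41% and 10.3% of all UMIs.

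*Gm7325*, which acts with *Tmem8c* in the last step of membrane merger, was counted at 272 CPM in Myog-positive cells of *mdx* (872 UMIs) and at 291 in D2-*mdx* (1032 UMIs). B10 had 1 UMI of it and DBA 0 UMIs in these cells. In Pax7-positive cells it had 1, 42, 0 and 66 UMIs in B10, *mdx*, DBA and D2-*mdx*, or at most 2.98 CPM. The rise of 7.20 ± 0.30 on the log2 scale (SE, n = 4; adjusted p = 3.2e-12) thus came from the dystrophic libraries, and without D2-*mdx* the counts were too few for the gene to be tested.

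After each cell was thinned to 3000 UMIs, 42.1% of *mdx* Myog-positive cells (95% Clopper-Pearson interval 35.5 to 49.0) and 35.8% of those of D2-*mdx* (29.8 to 42.3) held a *Tmem8c* UMI. The shares were 3 of 10 cells in B10 and 1 of 24 in DBA. With 1 *Myog* UMI enough for the class, they were 24.4% in *mdx* and 16.6% in D2-*mdx*. Unthinned, at median depths of 21696, 13936, 17298 and 12925 UMIs in B10, *mdx*, DBA and D2-*mdx*, the shares were 60.0%, 62.0%, 29.2% and 54.6%. Pericyte or smooth muscle cells, which should lack the gene, held a *Tmem8c* UMI in 0 of 73, 1 of 588, 0 of 416 and 5 of 810 cells at 3000 UMIs, with median depths of 9900, 8123, 10997 and 6731 UMIs. In D2-*mdx* the share of Pax7-positive cells with a *Tmem8c* UMI, 0.617%, equalled that of the pericyte or smooth muscle cells, also 0.617%. In Pax7-positive cells of D2-*mdx* with and without a *Myod1* UMI, *Tmem8c* stood at 4.09 (2.76 to 5.83) and 1.69 CPM (1.09 to 2.49). In those of *mdx* it stood at 1.41 (0.729 to 2.46) and 1.10 CPM (0.703 to 1.63), with overlapping intervals. Whether the *Tmem8c* UMIs of Pax7-positive cells were background was not tested.

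Co-detection was read in unthinned cells. Of the 216 Myog-positive cells of *mdx*, 88 held UMIs of both fusogens, 46 of *Tmem8c* alone, 21 of *Gm7325* alone and 61 of neither. Of the 240 of D2-*mdx*, 88 held both, 43 *Tmem8c* alone, 33 *Gm7325* alone and 76 neither. In B10, 1 of 10 cells held both and 5 *Tmem8c* alone, and in DBA 7 of 24 held *Tmem8c* alone and none held a *Gm7325* UMI, for which a count of 0 allows up to 12.5% of cells with a UMI and sets no limit on cells that express the gene. Cells with both had a median of 99 *Myog* UMIs in *mdx* and 52.5 in D2-*mdx*, against 10 and 7 in cells with neither, and they were also deeper, with 18739 and 18112 UMIs against 10518 and 9257.

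**Figure D2:**
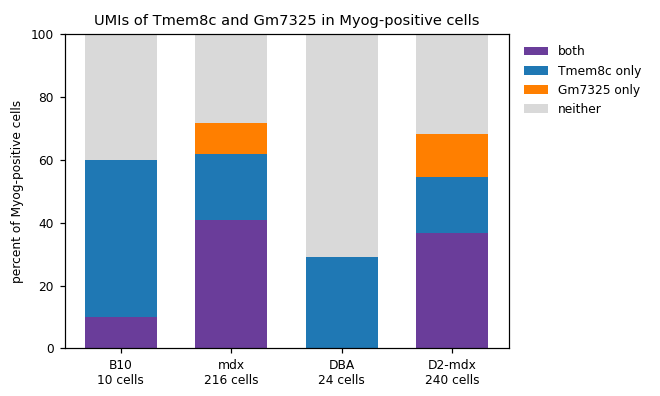
Percent of the Myog-positive cells of each library (vertical axis) in which UMIs of both fusogens, of 1 of them or of neither were counted, without thinning. Cells with both make up 40.7% in *mdx* and 36.7% in D2-*mdx*, 1 cell in B10 and none in DBA.

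The levels within Myog-positive cells were then read against *Myog* itself. The cells of *mdx* and of D2-*mdx* were ordered by the CPM of *Myog* and cut into tertiles of 72 and 80 cells. From the lowest to the highest tertile *Tmem8c* stood at 40.5, 330 and 828 CPM in *mdx* and at 41.2, 121 and 589 CPM in D2-*mdx*, a difference between the outer tertiles of 4.35 on the log2 scale (95% interval 3.90 to 4.84) and 3.84 (3.43 to 4.27). Per 100 *Myog* UMIs, Myog-positive cells held 9.09 *Tmem8c* UMIs in B10 (6.12 to 13.1) and 6.80 in DBA (4.68 to 9.58), against 11.2 in *mdx* (10.6 to 11.9) and 10.6 in D2-*mdx* (9.88 to 11.4). The intervals of B10 and of both dystrophic libraries overlapped on this scale. That of DBA overlapped the interval of B10 and lay below those of the dystrophic libraries. These intervals cover counting error and leave out the spread between cells. The *Tmem8c* UMIs of B10 came from 6 of 10 cells and those of DBA from 7 of 24.

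*Gm7325* also climbed with *Myog*, from 46.5 to 216 and 492 CPM in *mdx* and from 78.6 to 223 and 574 CPM in D2-*mdx*. Per 100 *Myog* UMIs it had 7.0 UMIs in *mdx* (6.53 to 7.50) and 12.2 in D2-*mdx* (11.4 to 13.0). B10 had 0.284 (0.00717 to 1.59) and DBA 0 (up to 0.719), so that the control libraries lay below the dystrophic ones at the depth available. At the level of the lowest *mdx* tertile, 9.15 UMIs would have been counted in B10 where 1 was, and at that of the lowest D2-*mdx* tertile, 33.2 in DBA where 0 were. *Myog* itself averaged 774 and 363 CPM in those tertiles and 1788 and 1220 CPM in the Myog-positive cells of B10 and DBA. These control averages pooled cells low and high in *Myog*. In DBA the 17 cells with neither fusogen had a median of 4 *Myog* UMIs and the 7 with *Tmem8c* alone 50. In B10 the 4 cells with neither had a median of 4 and the 5 with *Tmem8c* alone 53.

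**Figure D3:**
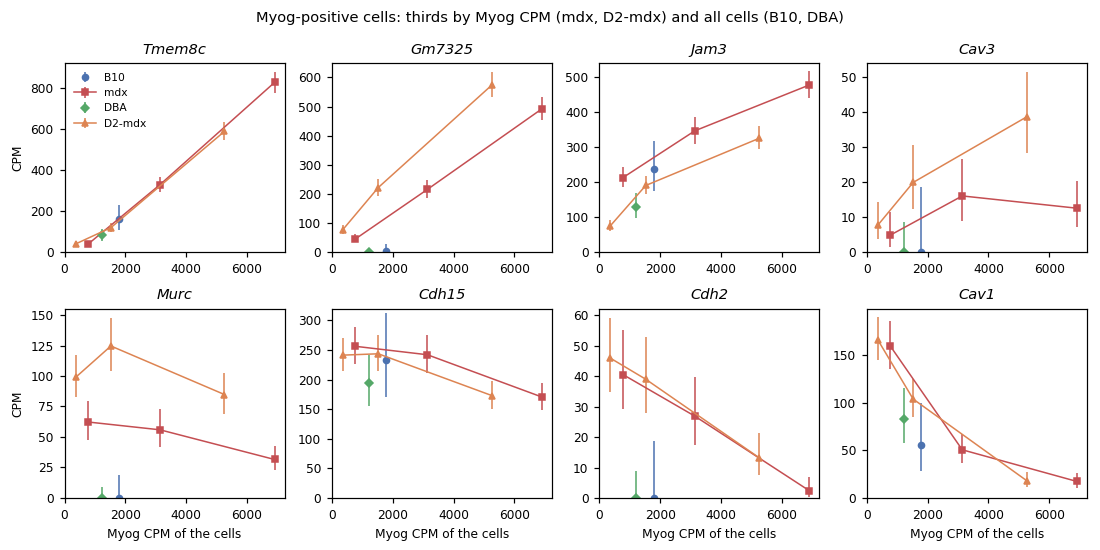
CPM of 8 of the genes (vertical axis) against the *Myog* CPM of the same cells (horizontal axis), for tertiles of Myog-positive cells of *mdx* and D2-*mdx* and for all Myog-positive cells of B10 and DBA, with exact 95% Poisson intervals. B10 and DBA sit near the dystrophic lines for *Tmem8c*, *Jam3* and *Cdh15*, and at or near 0 for *Gm7325*, *Murc*, *Cdh2* and *Cav3*.

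*Jam3*, the partner of *Jam2* in contacts between cells, was the adhesion gene that rose in Myog-positive cells. It was at 239, 357, 130 and 196 CPM there in B10, *mdx*, DBA and D2-*mdx*, against 64.6, 96.4, 64.7 and 72.3 CPM in Pax7-positive cells, and was thus higher in 4 of 4 libraries (1.62 ± 0.15 on the log2 scale, SE, n = 4; adjusted p = 5.0e-08). In the tertiles it stood at 214, 347 and 478 CPM in *mdx* and at 76.3, 191 and 326 in D2-*mdx*. *Jam2* was sparse in myogenic cells, at most 7.55 CPM in any class of any library, and its 0.77 ± 0.41 in Myog-positive cells did not pass (adjusted p = 0.15). Endothelial cells of the same libraries held *Jam2* at 414 to 733 CPM.

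*Cdh15*, a cadherin of satellite cells and myoblasts, was present throughout: 234, 218, 194 and 219 CPM in Myog-positive, 366, 343, 153 and 223 in dividing and 207, 321, 197 and 331 in Pax7-positive cells of B10, *mdx*, DBA and D2-*mdx*. Its difference between Myog-positive and Pax7-positive cells, −0.25 ± 0.16 on the log2 scale, did not pass (adjusted p = 0.24). Within each dystrophic library it was lower in Myog-positive cells, by −0.56 (−0.67 to −0.45) in *mdx* and −0.60 (−0.71 to −0.49) in D2-*mdx*, whereas the intervals of B10 and DBA included 0.

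*Cdh2*, a cadherin of many tissues, had 0, 69, 0 and 116 UMIs in Myog-positive cells. Its fitted difference from Pax7-positive cells, −0.34 ± 0.28, did not pass (adjusted p = 0.34), and *mdx* and D2-*mdx* lay on opposite sides of 0. Along *Myog* it went down in both libraries, from 40.5 to 26.9 and 2.37 CPM in *mdx* and from 45.9 to 39.0 and 13.2 CPM in D2-*mdx*, the reverse of the fusogens.

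The caveola genes divided. *Cav1* had 55.9, 71.7, 82.9 and 96.9 CPM in Myog-positive cells of B10, *mdx*, DBA and D2-*mdx*, against 220, 285, 204 and 229 CPM in Pax7-positive cells, and fell by 1.54 ± 0.18 on the log2 scale (SE, n = 4; adjusted p = 8.8e-07), lower in 4 of 4 libraries without overlap. In the tertiles it went from 159 to 50.5 and 17.4 CPM in *mdx* and from 166 to 104 and 18.1 CPM in D2-*mdx*, a difference of −3.20 (−3.91 to −2.55) and −3.19 (−3.90 to −2.56). *Ptrf* moved less, at 86.3, 71.98, 109 and 84.2 CPM against 122, 142, 115 and 150 CPM, and fell by 0.62 ± 0.16 (adjusted p = 0.0041). The fall of *Ptrf* did not pass without *mdx* (−0.49, adjusted p = 0.10).

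*Cav3* had 0, 36, 0 and 78 UMIs in Myog-positive cells of B10, *mdx*, DBA and D2-*mdx*, or 11.2 CPM in *mdx* and 22.0 in D2-*mdx*, against at most 2.35 CPM in Pax7-positive cells. It rose by 3.09 ± 0.42 on the log2 scale (SE, n = 4; adjusted p = 7.0e-06), and could not be tested without either dystrophic library. Even so its highest level was low, and pericyte or smooth muscle cells held 3.78 to 5.18 CPM of it.

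*Murc* had 0, 155, 0 and 361 UMIs in Myog-positive cells, or 48.3 CPM in *mdx* and 102 in D2-*mdx*, and rose by 3.35 ± 0.22 (adjusted p = 3.7e-10). This rise came from the dystrophic libraries. At the level of the dystrophic counterpart, 9.51 UMIs would have been counted in B10 and 42.9 in DBA. *Murc* did not follow *Myog* as *Cav3* did in D2-*mdx*: its tertiles were 62.3, 55.9 and 31.6 CPM in *mdx* and 98.8, 125 and 84.8 CPM in D2-*mdx*. Within the Myog-positive class it was highest in the cells with at least 5 UMIs of the dividing genes. Such cells numbered 1 of 10 in B10 and 0 of 24 in DBA, against 14 of 216 in *mdx* and 46 of 240 in D2-*mdx*. The part of this mix of cells in the *Murc* level of each library was not tested. Among Myog-positive cells of *mdx*, the 14 with at least 5 UMIs of the dividing genes held *Murc* at 195 CPM and the 129 with none at 11.9 CPM, and in D2-*mdx* the 46 and 97 such cells held 211 and 44.9 CPM, differences of 4.04 (3.28 to 4.84) and 2.23 (1.78 to 2.71) on the log2 scale. Over the same split *Jam3* differed by −0.97 (−1.38 to −0.58) and −1.18 (−1.56 to −0.82), and *Gm7325* by 2.10 (1.80 to 2.39) in *mdx* and −0.48 (−0.77 to −0.20) in D2-*mdx*. *Myog* itself, with which *Gm7325* and *Jam3* climbed, stood at 3700 against 3168 CPM over this split in *mdx* and at 974 against 2884 CPM in D2-*mdx*. The part of *Myog* in these differences was not tested. In cells with 1 to 4 UMIs of the dividing genes *Gm7325* was above the cells with none in both libraries, at 395 against 130 CPM in *mdx* and 398 against 244 CPM in D2-*mdx*. *Myog* stood at 4917 CPM in these cells of *mdx* and at 2896 in those of D2-*mdx*.

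Mature myofibre transcripts were read beside these results, from 10 genes of fast fibres. Their sum was 518, 814, 256 and 1283 CPM in Myog-positive cells of B10, *mdx*, DBA and D2-*mdx*, and 207, 213, 203 and 307 CPM in Pax7-positive cells, with 3, 9, 7 and 10 of the 10 genes above 0 in Myog-positive cells and *Ckm*, *Myh2*, *Myh4*, *Tnnc2* and *Mylpf* among those at 0 in B10. In Myog-positive cells of B10 *Atp2a1* gave 406 CPM of the sum and *Actn3* 107. *Actn3* alone stood at 132, 104.5, 153 and 121 CPM in Pax7-positive cells, against 107, 119, 109 and 171 in Myog-positive cells (same order). With cells of 10 or more UMIs of these fibre genes left out, 3 of the 10 fusion and caveola genes were called higher, since *Gm7325* and *Cav3* were too sparse to be tested there. The part of the myofibre transcripts in the result was not tested further.

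In dividing over Pax7-positive cells 2 of the 10 genes rose, *Murc* and *Gm7325*, against 17.8% of all genes, and none fell by edgeR or DESeq2, against 18.6%. At an unadjusted edgeR p under 0.05, 1 of the genes, *Jam3*, lay on the lower side. *Murc* was at 34.3 CPM in dividing cells of *mdx* and 61.9 in D2-*mdx*, with 0 and 1 UMIs in B10 and DBA, against 6.71 and 8.03 CPM in the Pax7-positive cells of the dystrophic libraries (2.69 ± 0.23 on the log2 scale, n = 4; adjusted p = 7.9e-09). The change of *Gm7325* was 1.12 ± 0.42 (adjusted p = 0.045), on 0, 3, 0 and 24 UMIs, and rested on D2-*mdx*, with a log2 ratio of 1.23 (0.49 to 1.92) there against −0.01 (−2.34 to 1.64) in *mdx* and no ratio in the controls. It did not pass with predicted doublets kept or by DESeq2. *Cav1* was retained, at 209, 343, 283 and 270 CPM in dividing cells (0.20 ± 0.17, adjusted p = 0.37), as was *Ptrf*, at 144, 163, 163 and 190 CPM (0.30 ± 0.15, adjusted p = 0.14).

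**Figure D4:**
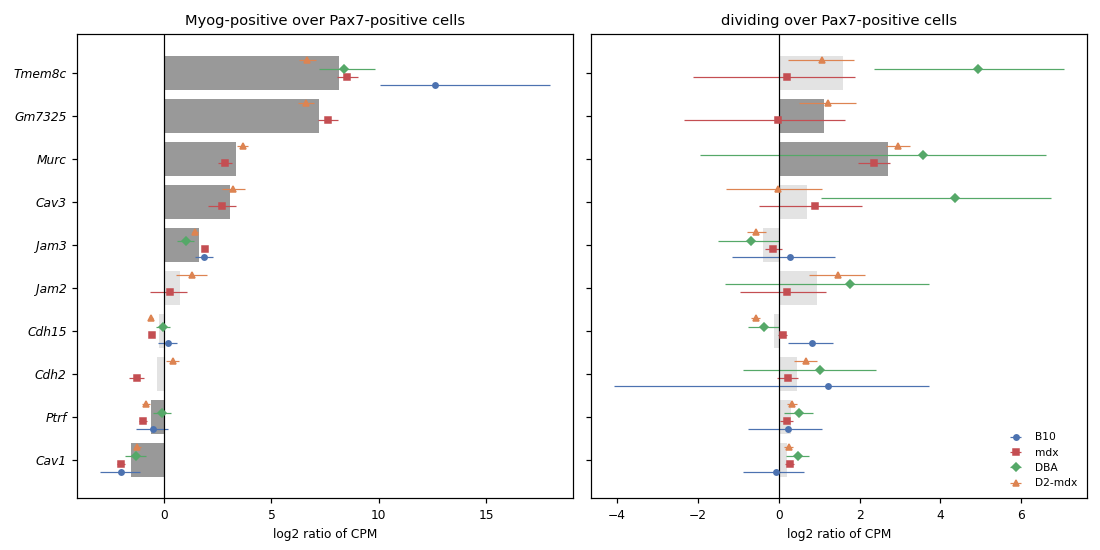
Log2 ratio of CPM, Myog-positive (left) and dividing (right) over Pax7-positive cells. Bars are the edgeR estimates, dark where the adjusted p was at most 0.05, and points are single libraries with exact 95% intervals, left out where both counts were at most 3 or a count of 0 gave no bound. *Tmem8c* stands farthest right on the left side at 8.14, and *Murc* stands farthest right on the right side among the bars at 2.69.

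Other genes linked to the same processes, not all of them components of caveolae or of the fusion machinery, were read beside them. Their lists were also chosen with earlier results of these data known, so the shares are a description. Of 30 other fusion genes 23 were tested in Myog-positive over Pax7-positive cells, and 2 (8.70%) rose and 6 (26.1%) fell, against 19.4% and 21% of all genes. The 2 were *Elmo1* (1.75 ± 0.24, edgeR adjusted p = 9.1e-06), a regulator of Rac signalling, and *Adam12* (1.63 ± 0.46, adjusted p = 0.0074), a metalloprotease, and among those that fell were the receptors *Boc* (−2.60 ± 0.39), *Kirrel* (−1.68 ± 0.26) and *Neo1* (−1.19 ± 0.21). Their median was −0.22. Of 12 other caveola genes 11 were tested and 9 (81.8%) fell, against 21% of all genes, among them *Ror1* (−2.96 ± 0.29), *Flot1* (−1.47 ± 0.20) and *Lrp6* (−1.28 ± 0.16), while *Ehd4* rose (1.38 ± 0.24), with a median of −0.91. In dividing cells 1 of the 23 fusion genes, *Myof* (1.26 ± 0.25), a ferlin of myoblast membranes, rose and 5 fell (4.35% and 21.7%, against 17.8% and 18.6% of all genes), and 2 of the 11 caveola genes, *Ehd4* (1.58 ± 0.25) and *Cav2* (0.65 ± 0.20), rose and 4 fell (18.2% and 36.4%).

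The second comparison asked how the genes differ between dystrophic and control muscle within a cell class. A gene was counted when it reached 10 UMIs and 10 CPM in either library of a pair, and was past 2-fold without a test.

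In Pax7-positive cells, the class with the most UMIs, 5 of the 10 genes had enough counts. *Cdh2* was past 2-fold in both pairs, and met the limit of 10 CPM only through the dystrophic libraries. It stood at 5.58 CPM in B10 (218 UMIs) and 51.8 in *mdx* (1573 UMIs), and at 4.97 in DBA (142 UMIs) and 24.5 in D2-*mdx* (544 UMIs), log2 ratios of 3.21 (95% interval 3.01 to 3.43) and 2.30 (2.03 to 2.58). Of all genes 4.13% were higher past 2-fold in *mdx* and 4.17% in D2-*mdx*, and 4.51% and 4.42% were lower. D2-*mdx* lay below *mdx* by −1.08 (−1.22 to −0.94), while DBA and B10 differed by −0.16 (−0.48 to 0.15).

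Other cell types in these sorts also held *Cdh2*, at 80.6 to 91.5 CPM in pericyte or smooth muscle cells and 66.5 to 135 CPM in glia. The summed level of the 6 pericyte or smooth muscle markers in Pax7-positive cells was 18.9, 32.3, 30.1 and 59.0 CPM (B10, *mdx*, DBA, D2-*mdx*), and that of the 5 glia markers 13.0, 17.5, 8.58 and 12.4, with all of these markers above 0. In Pax7-positive cells without any UMI of the panels *Cdh2* was at 5.45, 51.2, 4.99 and 22.9 CPM, so the ratios were as large there, 3.23 (2.99 to 3.49) and 2.20 (1.85 to 2.56). In Pax7-positive cells with and without a *Myod1* UMI, *Cdh2* stood at 49.7 (45.1 to 54.7) and 52.6 CPM (49.6 to 55.7) in *mdx*, with overlapping intervals, and at 31.3 (27.4 to 35.7) and 21.2 CPM (18.9 to 23.6) in D2-*mdx*, with intervals apart. Other states within the Pax7-positive class were not separated, and their shares may differ between the libraries compared.

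**Figure D5:**
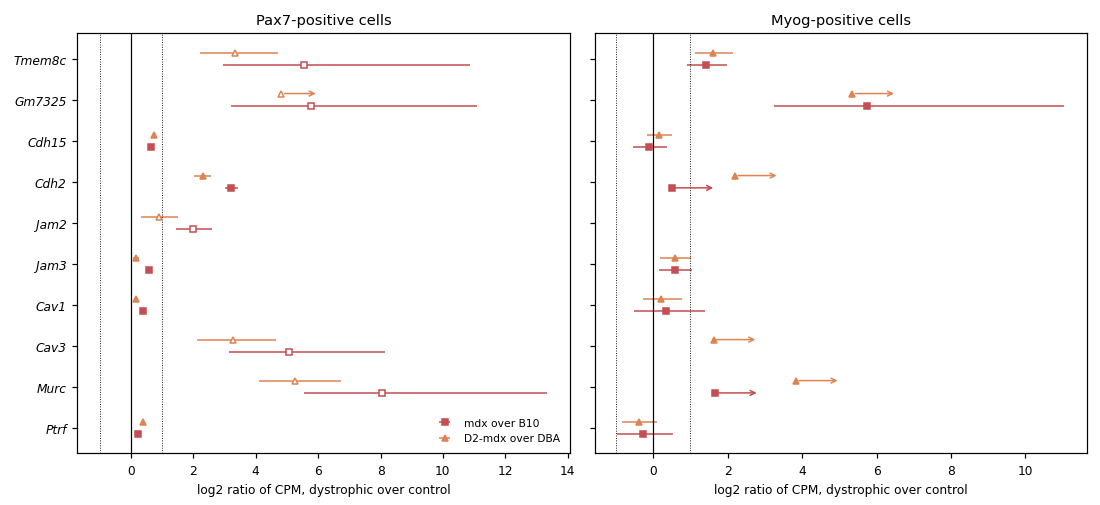
Log2 ratio of CPM, *mdx* to B10 and D2-*mdx* to DBA, in Pax7-positive (left) and Myog-positive (right) cells with exact 95% intervals; dotted lines mark 2-fold, open symbols genes under 10 UMIs or 10 CPM in both libraries, and arrows lower bounds against a library with 0 UMIs. *Cdh2* is the filled symbol past 2-fold in Pax7-positive cells, at 3.21 and 2.30, while *Cdh15*, *Jam3*, *Cav1* and *Ptrf* lie between 0.16 and 0.75.

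*Cdh15* was higher in the dystrophic Pax7-positive cells by 0.63 (0.59 to 0.68) and 0.75 (0.70 to 0.80), *Jam3* by 0.58 (0.50 to 0.65) and 0.16 (0.06 to 0.26), *Cav1* by 0.37 (0.33 to 0.42) and 0.17 (0.11 to 0.22), and *Ptrf* by 0.22 (0.16 to 0.28) and 0.39 (0.32 to 0.46), each inside 2-fold. Genes under the count limit had wide intervals. *Murc* went from 1 to 204 UMIs between B10 and *mdx* and from 6 to 178 between DBA and D2-*mdx*, log2 ratios of 8.04 (5.54 to 13.3) and 5.26 (4.10 to 6.72) at levels of at most 8.03 CPM, above the at most 1.46 CPM of it in pericyte or smooth muscle cells. Glia of D2-*mdx* held 5.27 CPM (1.93 to 11.5), which overlapped the 8.03 CPM (6.89 to 9.30) of Pax7-positive cells, and glia of *mdx* 1.08 CPM. In Pax7-positive cells without any UMI of the panels *Murc* stood at 6.09 CPM in *mdx* and 4.92 in D2-*mdx*. The ratios there were 7.44 (4.93 to 12.8) and 3.89 (2.67 to 5.39). *Tmem8c* and *Gm7325*, at 2.48 and 2.98 CPM in Pax7-positive cells of D2-*mdx*, were close to the 2.11 and 3.08 CPM of the pericyte or smooth muscle cells of that library. In *mdx* they were above them, with *Tmem8c* at 1.18 CPM (0.830 to 1.64) against 0.202 (0.00512 to 1.13) and *Gm7325* at 1.38 CPM (0.996 to 1.87) against 0.606 (0.125 to 1.77), though the intervals overlapped. Endothelial cells of *mdx* held *Tmem8c* at 1.81 CPM (0.373 to 5.28), on 3 UMIs, above its level in Pax7-positive cells. Glia and white blood cells of *mdx* held 0 UMIs of it. DBA had 7 UMIs of *Tmem8c* in Pax7-positive cells and 0 in pericyte or smooth muscle cells, whose interval reached 0.773 CPM.

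Of the other fusion and caveola genes, *Myof* was past 2-fold in Pax7-positive cells of both pairs, at 10.3 against 64.0 CPM in B10 and *mdx* and 2.31 against 37.9 CPM in DBA and D2-*mdx*, as was *Ehd4*, at 7.21 against 18.3 and 5.61 against 24.5 CPM. *Mcam*, an adhesion molecule, was lower, at 12.5 against 3.65 and 18.3 against 3.79 CPM. *Ehd4*, and *Myof* in D2-*mdx* over DBA, met the count limit only through the dystrophic library, and *Mcam* only through the control. In all, 1 of 20 fusion genes with enough counts was higher and 1 lower in *mdx*, and 2 and 3 of 19 in D2-*mdx*, and 1 of 10 caveola genes was higher in *mdx*, and 1 of 11 higher and 1 lower in D2-*mdx*. Over all genes 4.13% were higher and 4.51% lower in *mdx*, and 4.17% and 4.42% in D2-*mdx*.

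In Myog-positive cells 3 of the 9 genes with enough counts were higher past 2-fold in *mdx* over B10 (11.5% of all genes, with 9.53% lower) and 5 of 9 in D2-*mdx* over DBA (11.5% of all genes, with 10.2% lower), and none was lower. *Gm7325*, *Murc*, *Cdh2* and *Cav3* met the count limit only through the dystrophic libraries, so they could not have been counted as lower. *Tmem8c* differed by 1.42 (0.92 to 1.98) and 1.61 (1.12 to 2.14). *Gm7325* differed by 5.74 (3.26 to 11.0) from B10 with its 1 UMI and by at least 5.35 from DBA. *Murc* was at least 1.66 and 3.84 higher on the log2 scale, and *Cdh2* and *Cav3* were at least 2.20 and 1.63 higher in D2-*mdx*. At least 5 UMIs of the dividing genes were held by 1 of 10, 14 of 216, 0 of 24 and 46 of 240 Myog-positive cells (B10, *mdx*, DBA, D2-*mdx*). The part of these cells in the *Murc* ratios was not tested. *Cdh15*, with −0.10 (−0.53 to 0.36) and 0.17 (−0.16 to 0.52), *Cav1*, with 0.36 (−0.51 to 1.38) and 0.22 (−0.28 to 0.77), and *Ptrf*, with −0.26 (−0.97 to 0.54) and −0.37 (−0.82 to 0.11), had intervals that included 0. *Myog* itself was at 3881 CPM in *mdx* and 2381 in D2-*mdx*, against 1788 in B10 and 1220 in DBA. A *Pax7* UMI was held by 8 of 10, 70 of 216, 18 of 24 and 107 of 240 Myog-positive cells (B10, *mdx*, DBA, D2-*mdx*). Without it, *mdx* cells held *Tmem8c* at 552 and *Gm7325* at 350 CPM, against 183 and 103 CPM with it. In D2-*mdx* these were 348 and 399 CPM, against 128 and 150 CPM. The part of this difference in the ratios was not tested.

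In dividing cells 1 of 6 genes was past 2-fold in *mdx* over B10 (8.3% of all genes higher and 19.6% lower) and 2 of 6 in D2-*mdx* over DBA (9.55% higher and 12% lower). *Cdh2* and *Murc* met the count limit only through the dystrophic libraries. *Cdh2* was at 60.4 against 13.1 CPM, on 1 B10 UMI, and at 38.9 against 10.0 CPM, on 4 DBA UMIs, with ratios of 2.21 (−0.29 to 7.52) and 1.96 (0.57 to 3.86). *Murc* was at 61.9 CPM in D2-*mdx* against 1 UMI in DBA, a ratio of 4.63 (2.14 to 9.94).

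The genes whose levels ran most alike over the 12 sums of 3 classes and 4 libraries were found by Pearson's r of log2(CPM + 1), as a description. For *Tmem8c* they were *Cnot6l*, *2310043L19Rik* and *Dusp4* (r = 0.98 each), and for *Gm7325* they were *Smyd1*, *Hfe2* and *Tnnt2* (0.95 each), genes of muscle. *Cav3* ran with *Klhl40* (0.95), *Fbxl13* and *Itgb6* (0.94 each), *Murc* with *Spp1*, *Cst6* and *Baiap2l1* (0.96 each), and *Cdh2* with *Npc2* (0.97), *Col27a1* (0.96) and *Myof* (0.94). *Cav1* ran with *Snai2* (0.97), *Rap1gds1* (0.96) and *Tmem107* (0.95), *Jam3* with *Ryr1*, *Msi2* and *Pdzrn4* (0.95 to 0.96), *Cdh15* with *Tpgs1* (0.90), *Cul1* and *Igfbp7* (0.88 each), and *Ptrf* with *Tmem107*, *Mgat2* and *Jdp2* (0.88 to 0.89).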

How the data were processed

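Satellite cells of 4 mouse libraries were profiled by the authors with 10X Genomics 3′ chemistry and aligned to mm10 with Cell Ranger 3.0.1, per the submitters' processing notes. The deposited values were UMI counts per gene and barcode, not normalized. The 10 genes and all gene lists were chosen with earlier results of these data known. Kept cells had 1000 to 5000 genes and a mitochondrial share of no more than 8%, predicted doublets were removed (scanpy 1.11.5), and cells with 5 or more UMIs over a panel of another cell type were left out. Before the panels were applied, 4581 of 9931 barcodes were kept in B10 and 3279 of 3539 in DBA. In *mdx* 6313 of 7173 were kept and in D2-*mdx* 5756 of 6782. With at least 500 genes and no upper limit, dividing cells numbered 11, 203, 35 and 363 (B10, *mdx*, DBA, D2-*mdx*). Under the limits used they numbered 5, 137, 22 and 221. *Dpt* was planned for the fibroblast panel and was dropped from it after the data were seen: with it, 30.7% to 83.0% of kept cells were left out, without it 3.60% to 28.2%.

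Counts were summed per library and class, and class differences were tested over the 12 sums with edgeR 4.0.16 (quasi-likelihood, library as a block, Benjamini-Hochberg adjustment over all genes tested, threshold 0.05). The SE given with an edgeR log2 change was its absolute value divided by the square root of the F statistic of the test. The n of 4 counts the libraries in the fit, also those with too few UMIs of a gene for a ratio. The classes of a library were paired because they came from the same pooled mice. Dystrophic and control libraries were set side by side without a test, with exact 95% Poisson, binomial and Clopper-Pearson intervals, which cover counting error only, and a library at 0 was taken at a floor of 3 counts. All 10 genes were named by rule, with up to 3 listed genes in each direction. The steps were tested on simulated data. Alternatives covered cell limits, gates, class thresholds, depth, DESeq2 1.42.0, the block and each library left out.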

Additional observations from a re-analysis of the deposited data

Results flagged for a closer look

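*Cdh15* in dividing over Pax7-positive cells had a log2 ratio of 0.82 in B10, on 5 dividing cells, and −0.37 in DBA, on opposite sides of 0 in the control strains. The difference was not tested, since each strain had 1 library.

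*Cdh2* in Myog-positive over Pax7-positive cells had a log2 ratio of −1.27 in *mdx* and 0.41 in D2-*mdx*, on opposite sides of 0 in the dystrophic strains. This difference was not tested either.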

How the results depend on the processing

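Of 384 class fold changes recomputed under alternatives 355 kept their direction and side of the threshold, and so did 694 of 747 dystrophic over control ratios within their error. The causes of the exceptions were not tested. Counts of the 10 genes under an alternative show only how far they move, since most stand without the share of all genes at that setting. In Myog-positive over Pax7-positive cells, a limit of 500 genes without an upper limit left 1 gene of the 10 called lower and turned *Cdh2* to 0.87. Without cells rich in mature myofibre transcripts 3 of the 10 were called higher. With no replicate block, that is without pairing the classes of a library, 1083 genes rose and 1147 fell, and 1 of the 10 was lower. Leaving out each library in turn gave 1210 to 2295 genes higher, 1303 to 2327 lower, 3 to 5 of the 10 higher and 1 to 3 of the 10 lower, and *Cdh2* ran from −1.23 without D2-*mdx* to 0.22 without *mdx*.

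In dividing over Pax7-positive cells 1 of the 10 was called higher with predicted doublets kept, at most 5% mitochondrial UMIs, 3 UMIs over a panel, myofibre-rich cells left out or DESeq2, and 4 with at least 500 genes and no upper limit or with dividing cells taken first. At least 500 genes with no upper limit gave 2916 genes higher and 3273 lower, 2 of the 10 lower, and *Cav1* at −0.14. A *Myog* limit of 1 UMI or 10 UMIs of the dividing genes gave 1 of the 10 lower. With *Dpt* kept *Cav1* was at −0.059. With no replicate block 897 genes rose and 794 fell, and 0 of the 10 were higher. Leaving out each library in turn gave 984 to 2228 genes higher, 837 to 2009 lower, 1 to 3 of the 10 higher and 0 to 0 of the 10 lower, and *Cdh15* ran from −0.25 without *mdx* to 0.047 without D2-*mdx*.

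The number of the 10 past 2-fold in *mdx* over B10 was 5 in Myog-positive cells with a *Myog* limit of 1 UMI, and in dividing cells 3 with at least 500 genes and no upper limit, 0 with 10 UMIs of the dividing genes, 4 with dividing cells taken first, and 2 with TMM library sizes or thinning. In D2-*mdx* over DBA it was 3 at 50 CPM and 2 after thinning in Myog-positive cells, 4 with dividing cells taken first or *Dpt* kept and 1 at 50 CPM or after thinning in dividing cells, and 2 with *Dpt* kept and 0 at 50 CPM in Pax7-positive cells. The share of all genes past 2-fold at each of these settings is not given here, so the counts describe the settings and no more.

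The percent of Myog-positive cells with a *Tmem8c* UMI without thinning was 29.2 in DBA, 62.0 in *mdx* and 54.6 in D2-*mdx*, and it was 25.0 in D2-*mdx* at 2000 UMIs, and 24.4 in *mdx* and 16.6 in D2-*mdx* with a *Myog* limit of 1 UMI. For *Gm7325* it was 50.5 and 50.4 without thinning and 15.3 and 16.0 with that limit. The percent of *Tmem8c* UMIs from Myog-positive cells was 97.0 in *mdx* with a *Myog* limit of 1 UMI, 89.1 in D2-*mdx* with no gate, and 100.0 in B10 and 93.8 in D2-*mdx* with *Dpt* kept. *Dpt* kept in the panel was chosen after seeing the data. Depth limits B10 most: at the *mdx* level its 10 Myog-positive cells would have held 2.21 UMIs of *Cav3* and 4.23 of *Cdh2*, where 0 were seen.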

Other observations

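Cell types set aside from the myogenic classes held several of the same genes. Endothelial cells, 286 over the 4 libraries, held *Cav1* at 2233 to 3171 CPM, *Ptrf* at 660 to 1345 CPM and *Jam2* at 414 to 733 CPM, and *Murc* and *Gm7325* had 0 UMIs in them. Glia, 507 cells, held *Jam3* at 189 to 337 CPM. In pericyte or smooth muscle cells, 1889 in all, *Cav1* stood at 466 to 674 CPM and *Cdh15* at 3.56 to 8.43 CPM.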
